A study of Homo sapiens with 18 samples.

Results

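The comparison asks how the response to doxycycline (Dox) in one prostate cancer cell line differed from the response to the same drug in another. Members are arrays, chosen by their labels: 12 of the 18 arrays of the series, 6 from 22Rv1 cells and 6 from LNCaP cells. Each gene's value is a difference of differences, the change with Dox in 22Rv1 minus the change with Dox in LNCaP, on a log2 scale. The groups were 22Rv1-tetO-Gal4 without Dox, 22Rv1-tetO-Gal4 with Dox, LNCaP-tetO-Gal4 without Dox and LNCaP-tetO-Gal4 with Dox, with 3 arrays in each. All of these cells carried the tetO-Gal4 construct, so within a line the labels separate controls from treated cells by Dox alone. The labels name the cells without Dox as controls and the cells with Dox as expressing galectin-4. The sources used here give neither the dose and duration of Dox nor whether each line was a clone or a pool. No group of cells without the construct received Dox, so effects of the drug and of galectin-4 cannot be told apart. The other 6 arrays came from 22Rv1-M4 cells after knockdown of galectin-4 or with a scramble control. They entered the normalization, the detection filter, the choice of probe and the estimate of the spread between arrays. Their group means entered neither Dox response.

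22Rv1 is a human prostate cancer line from a serially passaged xenograft, and LNCaP is a line from a lymph node metastasis of prostate cancer. Galectin-4 (gene LGALS4) belongs to the galectins, secreted and cytosolic lectins with affinity for beta-galactosides, and is made mainly by gut epithelium. In a tetO system the drug switches a gene on through a regulator that binds tet operator sequences. The hypoxia pathway is a group of genes switched on by the transcription factors HIF-1 and HIF-2. Their alpha subunits are hydroxylated by EGLN enzymes when oxygen is present and then destroyed, and when they persist they bind ACGTG core sequences near genes for glucose use, survival and blood supply.

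RNA was labelled as biotinylated cRNA and measured on Illumina bead arrays with 47303 probes. Mean intensity lay between 306 and 372 on the 12 arrays, and 42.2% to 44.9% of probes were detected, which here means a detection p-value under 0.05. Arrays of one group correlated at 0.976 to 0.996. The median standard deviation of a gene without and with Dox was 0.10 and 0.21 in 22Rv1, and 0.16 and 0.13 in LNCaP. Replicate 3 of LNCaP without Dox stood apart for 171 genes described at the end, and values without it are given there. The labelled tissue was checked with prostate luminal markers, of which 7 of 8 with a probe were detected on all arrays of both 22Rv1 groups and 8 of 8 in both LNCaP groups. KLK3, which encodes prostate-specific antigen, was detected on 0 of 6 arrays of 22Rv1 and 6 of 6 of LNCaP. Detected on all arrays of a group were at most 1 of 4 basal markers, 2 of 8 fibroblast markers, 2 of 7 leukocyte markers and 1 of 6 endothelial markers. No label says that replicates were separate cultures, and p-values therefore measure only the spread between these arrays, which may be technical.

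The galectin-4 probe rose with Dox in LNCaP and gave no call in 22Rv1. On the linear scale of the deposited table LGALS4 read 108, 117 and 112 in LNCaP without Dox, where it was not well above background on any array, and 144, 186 and 198 with Dox. In 22Rv1 it read 167, 161 and 154 without Dox and 156, 140 and 158 on the arrays labelled as 22Rv1 with Dox, detected on all 6. The LNCaP groups did not overlap and the 22Rv1 groups did. On the background-corrected scale the LNCaP change was at least 3.41-fold, with a fitted log2 change of 1.92 (SE 0.21, adjusted p = 8.32e-06) in limma, and the 22Rv1 change was -0.06 (SE 0.21, adjusted p = 0.877). The responses differed by -1.98 (SE 0.30, adjusted p = 1.09e-04). The LGALS4 difference was -0.73 (adjusted p = 0.00306) without background correction. Here and below the p-values come from limma's moderated test, adjusted by Benjamini-Hochberg over 18408 probes with a gene symbol, and a gene is called under 0.05. Levels, changes and differences are normalized log2 values throughout, and where 2 changes are given the first is for 22Rv1 and the second for LNCaP. A fold written "at least" sets the group with signal against the detection limit where the other group was not well above background on any array. It holds for background-corrected values alone, and fitted changes and differences of such genes depend on that correction and are no bounds. Whether the probe lies in the part of the gene that the construct holds was not tested. Every direction below is therefore for the arrays labelled as 22Rv1 with Dox and LNCaP with Dox.

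Genes are read by their brightest probe, 13680 in all, and "higher" or "lower" refers to the 22Rv1 change relative to the LNCaP change. The responses differed for 2465 genes (18.0%), 1241 of them higher (9.07%) and 1224 lower (8.95%). The difference was at least 2-fold for 606 higher and 442 lower genes, and at least 4-fold for 195 and 58. In 22Rv1 alone, 1205 genes rose (8.81%) and 2062 fell (15.1%), and in LNCaP 1462 rose (10.7%) and 2259 fell (16.5%), so 23.9% and 27.2% of genes were called in each. Of the 2465 genes, 1121 were called with Dox in 22Rv1 only, 877 in LNCaP only, 319 in both and 148 in neither. Opposite calls were made for 209 genes that rose in 22Rv1 and fell in LNCaP (1.53%), and for 74 genes the other way (0.541%). Arrays with and without Dox did not overlap in either line for 199 of the 209 and 73 of the 74. These genes were called on the same arrays, so that count describes them and is no further evidence. Another 191 genes rose in both lines (1.40%) and 542 fell in both (3.96%), and the size differed for 36 of them. The 209 became 127 without replicate 3 of LNCaP without Dox, and 107 and 128 without replicates 2 and 3 of LNCaP with Dox. The 74 became 45 without replicate 3 of 22Rv1 without Dox, and 48 and 43 without replicates 2 and 3 of LNCaP with Dox. The shared rises and falls became 525 and 917 without replicate 3 of 22Rv1 with Dox, and 103 and 338 without replicate 2 of that group. A call in 1 line does not show a difference: 1130 genes called in 22Rv1 and 1828 called in LNCaP had no call for the difference itself. Across the 9929 genes detected in both lines the responses correlated at 0.12 (Pearson) and 0.20 (Spearman), a description across genes that share arrays and a fit. With the main axis of spread within groups removed from all arrays the Pearson value was -0.09, so its sign depends on that step.

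**Figure D1:**
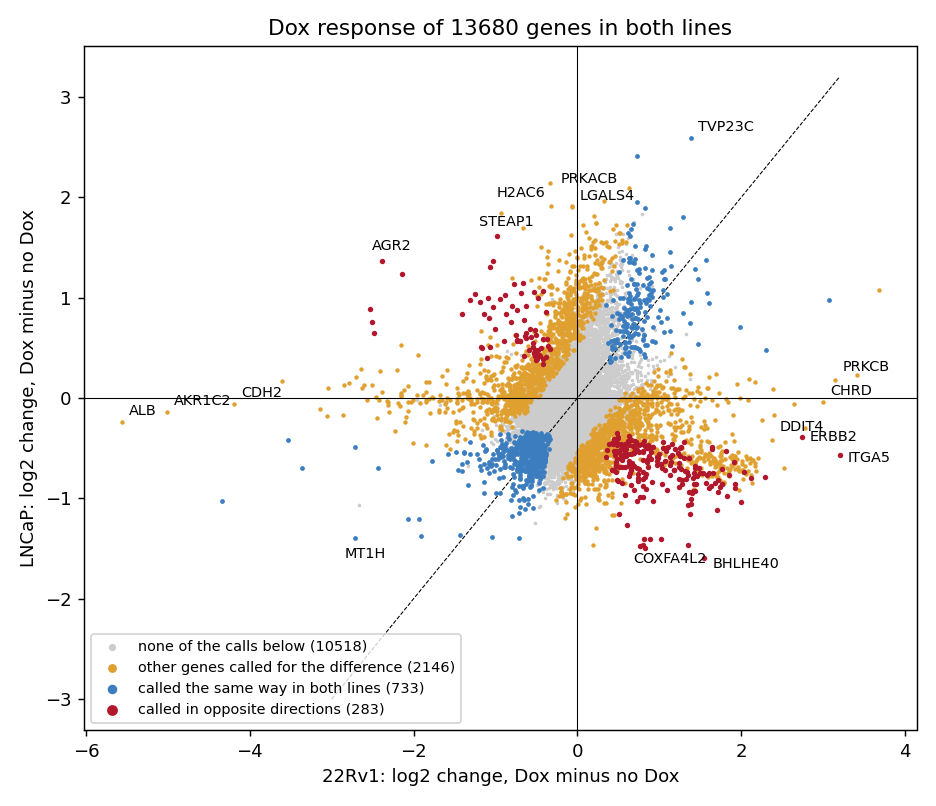
Change with Dox in LNCaP (vertical axis, log2) against the change with Dox in 22Rv1 (horizontal axis, log2), 1 point for each of 13680 genes. Red points are the 283 genes called in opposite directions, blue points the 733 called the same way in both lines and orange points the other genes called for the difference, and the dashed diagonal marks equal responses. More red points lie at the lower right (22Rv1 up, LNCaP down, 209 genes) than at the upper left (74 genes).

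Hypoxia genes rose with Dox in 22Rv1 and fell in LNCaP for much of the list. Of 62 measured members of the 3 hypoxia lists, 44 were higher in the 22Rv1 response (71.0%, against 9.07% of all genes) and 0 were lower (against 8.95%). Under every alternative analysis 40 to 50 were higher and 0 lower. In 22Rv1 36 of the 62 rose and 1 fell, and in LNCaP 2 rose and 32 fell. Opposite calls were made for 19. The median difference was 1.24, from a median change of 0.64 in 22Rv1 and of -0.50 in LNCaP, beside medians of -0.02, -0.06 and -0.08 over all genes. Under the alternatives the median difference ran from 0.29 to 0.73 for the regulators, 0.72 to 1.46 for glycolysis genes and 0.96 to 1.69 for the other HIF targets. The lists and the count were known from earlier results of these data, so they describe the comparison and are not independent evidence of it.

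The 250 bases before the start of 4 hypoxia genes with opposite calls are shown, since each holds the ACGTG core read on either strand. They were picked after values were seen, as examples of genes with a match. They are not a complete ranking of such genes by the size of their changes. Sequences are from RefSeq (GRCh38.p14), written 5′ to 3′ on the gene's strand, with each match in capitals.
BHLHE40 (chr3:4979187-4979436, plus strand): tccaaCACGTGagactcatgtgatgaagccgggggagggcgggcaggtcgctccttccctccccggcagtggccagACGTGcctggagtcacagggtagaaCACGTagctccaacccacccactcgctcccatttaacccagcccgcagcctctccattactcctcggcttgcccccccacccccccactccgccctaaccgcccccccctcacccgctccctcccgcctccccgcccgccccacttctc
PDK3 (chrX:24465036-24465285, plus strand): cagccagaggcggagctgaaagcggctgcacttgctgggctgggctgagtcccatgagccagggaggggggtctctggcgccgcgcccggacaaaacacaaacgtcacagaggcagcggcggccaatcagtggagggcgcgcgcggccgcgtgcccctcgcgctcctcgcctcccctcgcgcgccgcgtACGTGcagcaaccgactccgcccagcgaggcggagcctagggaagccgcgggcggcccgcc
ALDOC (chr17:28576896-28577145, minus strand): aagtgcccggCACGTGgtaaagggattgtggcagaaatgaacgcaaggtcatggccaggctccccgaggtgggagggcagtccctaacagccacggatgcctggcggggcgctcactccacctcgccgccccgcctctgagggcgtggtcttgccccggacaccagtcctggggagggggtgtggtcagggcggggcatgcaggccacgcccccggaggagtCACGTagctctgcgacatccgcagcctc
AK4 (chr1:65147302-65147551, plus strand): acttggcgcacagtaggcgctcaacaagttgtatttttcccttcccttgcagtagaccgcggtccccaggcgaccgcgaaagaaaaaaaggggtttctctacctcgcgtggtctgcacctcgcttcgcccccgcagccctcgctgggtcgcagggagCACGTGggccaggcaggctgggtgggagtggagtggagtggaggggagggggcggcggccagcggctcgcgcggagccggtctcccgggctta
BHLHE40 holds 4 matches, ALDOC 3, AK4 2 and PDK3 1, where CACGTG counts once on each strand. ACGTG was found in 52.5% of the 40 called hypoxia genes with a promoter in the table (21 of 40), in 41.2% of those with opposite calls (7 of 17), and in 18.7% of all 27305 promoters. A match is a description of letters and not a measured binding site.

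Among regulators of the pathway, BHLHE40 encodes a basic helix-loop-helix repressor induced by HIF-1. On 22Rv1 arrays BHLHE40 read 4.70, 4.60 and 4.76 without Dox and 6.30, 5.80 and 6.59 with Dox. On LNCaP arrays BHLHE40 read 9.94, 10.23 and 9.51 without Dox and 8.45, 8.27 and 8.19 with Dox. With Dox every array lay above all controls in 22Rv1 and below all controls in LNCaP. The changes were 1.54 (SE 0.18, adjusted p = 2.01e-06) and -1.59 (SE 0.18, adjusted p = 8.32e-06), a difference of 3.13 (SE 0.25, adjusted p = 4.50e-08). Its relative BHLHE41 was detected on all 3 arrays of 22Rv1 with Dox and nowhere else, and rose at least 4.33-fold there, with a difference of 2.30 (SE 0.22, adjusted p = 3.15e-07). EGLN3, a hydroxylase that marks HIF alpha subunits for destruction and is itself a HIF target, was not well above background on any array of 22Rv1 without Dox. EGLN3 rose at least 1.33-fold there and fell by 0.72 in LNCaP, a difference of 1.38 (SE 0.21, adjusted p = 1.04e-04). KDM3A, a histone demethylase of the pathway, changed by 0.85 and -0.50, a difference of 1.35 (SE 0.23, adjusted p = 2.97e-04). HIF1A itself, whose protein rather than its mRNA is set by oxygen, was not called: its changes were 0.19 and -0.53, and the 95% interval of the difference, not adjusted for the number of probes as for all intervals here, was 0.08 to 1.35 (adjusted p = 0.113 in limma). Its other probes differed by 0.20 and -0.13, also not called, with LNCaP changes of 0.36 and 0.31. Among the 15 measured regulators 7 were higher (46.7%) and 0 lower. Another 3 genes of this list, named after their values were seen, moved the same way in both lines. EGLN1, the main oxygen-sensing hydroxylase, changed by 0.76 in 22Rv1 and 0.47 in LNCaP, and CITED2, which competes with HIF for a coactivator, by -0.64 and -0.55. ANKRD37, a HIF target, changed by 3.08 and 0.97 and did differ in size, by 2.10 (SE 0.40, adjusted p = 9.58e-04).

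Among glycolysis genes 17 of 22 were higher (77.3%) and 0 lower, with 8 opposite calls. In 22Rv1 10 of the 22 rose and 0 fell, and in LNCaP 0 rose and 17 fell. PFKFB4 and PFKFB3 make fructose 2,6-bisphosphate, an activator of glycolysis. On 22Rv1 arrays PFKFB4 read 8.59, 8.61 and 8.53 without Dox and 10.16, 9.39 and 10.29 with Dox. On LNCaP arrays PFKFB4 read 10.21, 10.47 and 10.14 without Dox and 8.93, 9.17 and 9.26 with Dox. The groups did not overlap in either line, with changes of 1.37 (SE 0.18, adjusted p = 1.03e-05) and -1.15 (SE 0.18, adjusted p = 1.55e-04) and a difference of 2.53 (SE 0.25, adjusted p = 5.00e-07). PFKFB3 differed by 2.42 (SE 0.29, adjusted p = 5.60e-06), and its second probe by 1.21 (adjusted p = 0.00412). PGK1, which makes ATP in glycolysis, read 10.99, 11.19 and 11.05 without Dox and 12.28, 12.08 and 12.64 with Dox in 22Rv1. For LNCaP, PGK1 read 12.62, 12.77 and 12.16 without Dox and 11.85, 11.94 and 12.01 with Dox. Both changes were called, at 1.25 and -0.58, and the difference was 1.83 (SE 0.23, adjusted p = 1.16e-05). PDK3 keeps pyruvate out of mitochondria by inactivating pyruvate dehydrogenase, and differed by 1.95 (SE 0.21, adjusted p = 1.46e-06). Its second probe differed by 0.76 (adjusted p = 0.00294) with a change of 0.08 in LNCaP, so the LNCaP fall rests on 1 probe. The glucose transporter gene SLC2A1 changed by 1.08 and -0.50, and hexokinase gene HK2 by 0.97 and -0.67, all called. GAPDH, often used as a reference gene, changed by -0.15 in 22Rv1 (adjusted p = 0.572) and -0.84 in LNCaP (adjusted p = 0.00128), with no call for the difference (adjusted p = 0.0533). These last 3 genes were named after their values were seen.

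Other HIF targets were higher in 20 of 25 cases (80%), with 0 lower and 8 opposite calls. In 22Rv1 20 rose and 0 fell, and in LNCaP 0 rose and 9 fell. DDIT4, an inhibitor of mTORC1 made under stress, was called in 22Rv1 only. On 22Rv1 arrays DDIT4 read 8.99, 9.13 and 8.91 without Dox and 11.36, 11.11 and 11.69 with Dox. On LNCaP arrays DDIT4 read 12.33, 12.43 and 12.19 without Dox and 11.73, 12.06 and 11.90 with Dox. The 22Rv1 change was 2.38 (SE 0.16, adjusted p = 7.97e-10) and the LNCaP change -0.42 (SE 0.16, adjusted p = 0.0637), and the difference was 2.80 (SE 0.23, adjusted p = 5.90e-08). BNIP3, a mitophagy receptor, was also called in 22Rv1 only. On 22Rv1 arrays BNIP3 read 10.42, 10.55 and 10.52 without Dox and 12.33, 12.41 and 12.25 with Dox, without overlap. On LNCaP arrays BNIP3 read 12.92, 13.02 and 12.73 without Dox and 12.66, 12.98 and 12.91 with Dox, with overlap. The changes were 1.84 (SE 0.13, adjusted p = 6.77e-10) and -0.04 (SE 0.13, adjusted p = 0.867), and the difference 1.88 (SE 0.18, adjusted p = 2.27e-07). STC1, a secreted glycoprotein, was not well above background in 22Rv1 without Dox and rose at least 1.70-fold there. In LNCaP it fell by 1.40, and the difference was 2.28 (SE 0.21, adjusted p = 1.28e-07). PLOD1, a collagen lysyl hydroxylase, changed by 0.91 and -0.83 (difference 1.74, SE 0.19, adjusted p = 1.60e-06). NDRG1, a stress-response gene that androgen also induces, changed by 1.17 and -0.72 (difference 1.89, SE 0.29, adjusted p = 1.04e-04). COXFA4L2, a mitochondrial protein gene that lowers oxygen use under hypoxia, changed by 1.35 and -1.46 (difference 2.81, SE 0.34, adjusted p = 6.90e-06). AK4, an adenylate kinase, and ALDOC, an aldolase, whose promoters are printed above, differed by 1.79 and 1.75 with opposite calls. ENO2, an enolase gene also used as a neuroendocrine marker, was called only in LNCaP, at -1.47 (SE 0.19, adjusted p = 2.94e-05), against 0.19 (SE 0.19, adjusted p = 0.532) in 22Rv1. The lines also started from different levels: before Dox, BHLHE40 averaged 4.69 ± 0.08 (SD, n = 3) in 22Rv1 and 9.89 ± 0.36 in LNCaP, and STC1 4.57 ± 0.01 and 6.61 ± 0.27. The sources used here give no culture density or oxygen level, and their part in the result was not tested.

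**Figure D2:**
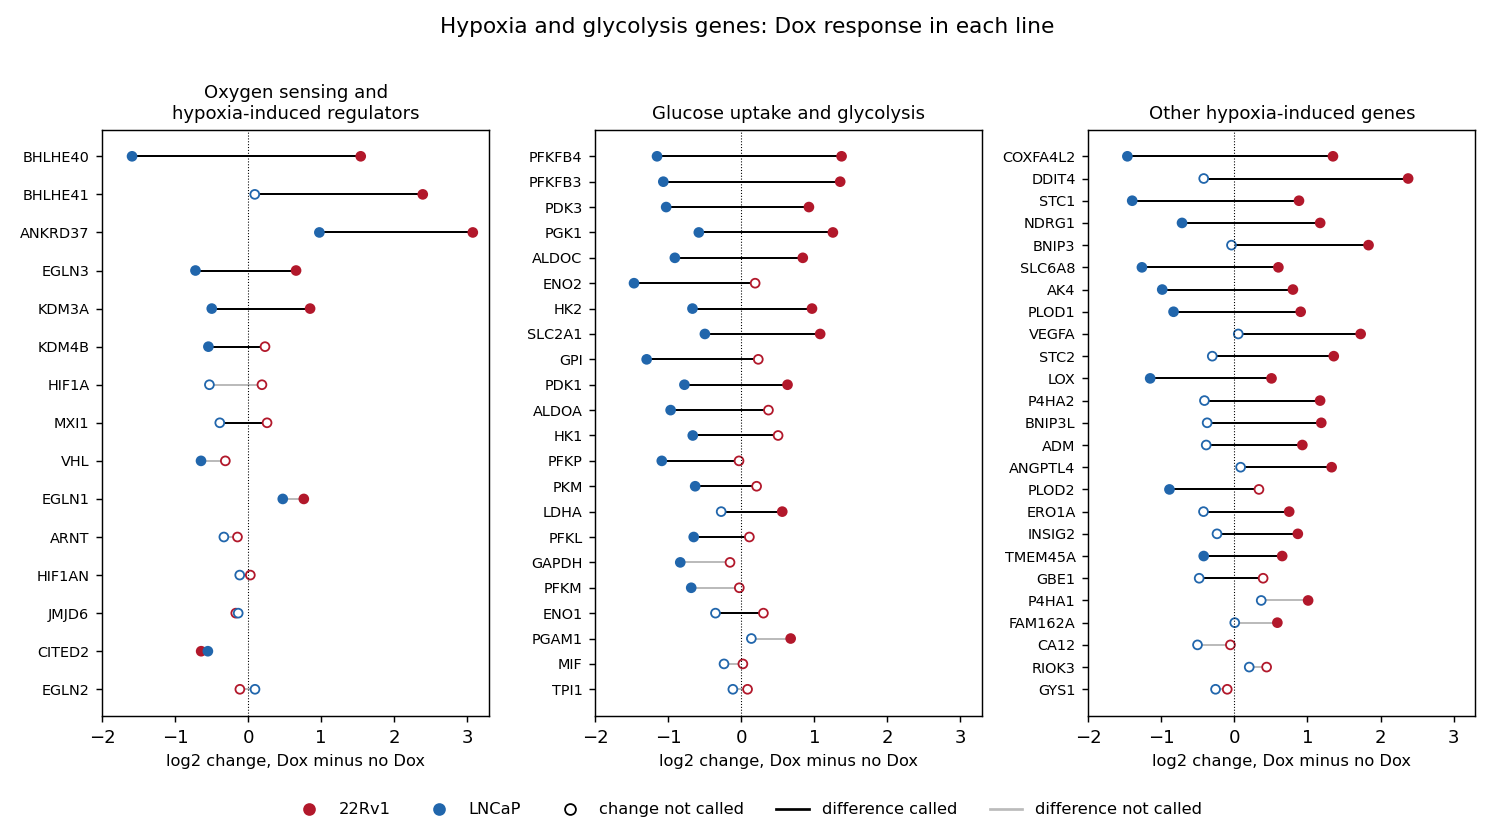
Change with Dox (log2, horizontal axis) in 22Rv1 (red) and in LNCaP (blue) for each of the 62 measured members of the 3 hypoxia lists, joined by a line that is black where the difference was called. Filled points are called changes: 36 red points right of 0 and 32 blue points left of 0 are filled.

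Clustered histone genes moved in the reverse sense. These genes are copied into mRNA during DNA replication, and most of their messages lack a poly(A) tail. Of 48 measured, 24 were lower in the 22Rv1 response (50%, against 8.95% of all genes) and 0 higher, with 5 opposite calls. In 22Rv1 0 rose and 13 fell, and in LNCaP 19 rose and 1 fell. The median difference was -0.66. Under the alternatives 18 to 30 were lower and the median ran from -0.87 to -0.29, the last without background correction. H2AC6 encodes an H2A protein and H2BC5 an H2B protein. On 22Rv1 arrays H2AC6 read 5.17, 5.27 and 5.26 without Dox and 5.10, 4.82 and 4.82 with Dox. On LNCaP arrays H2AC6 read 7.09, 7.43 and 6.96 without Dox and 8.71, 9.16 and 9.35 with Dox. The LNCaP groups lay apart, and the 22Rv1 groups did too, though by less than the test asks. The changes were -0.32 (SE 0.23, adjusted p = 0.343) and 1.91 (SE 0.23, adjusted p = 1.43e-05), and the difference -2.24 (SE 0.32, adjusted p = 5.41e-05). On 22Rv1 arrays H2BC5 read 6.56, 6.57 and 6.48 without Dox and 5.77, 5.76 and 5.78 with Dox. On LNCaP arrays H2BC5 read 7.98, 7.80 and 7.89 without Dox and 8.64, 9.23 and 9.22 with Dox. Neither line showed overlap, with changes of -0.77 (SE 0.19, adjusted p = 0.00461) and 1.14 (SE 0.19, adjusted p = 2.28e-04) and a difference of -1.91 (SE 0.26, adjusted p = 3.35e-05). Its other probes differed by -1.34 (adjusted p = 0.00123) and -0.71 (adjusted p = 0.0102). Their 22Rv1 changes were -0.50 and 0.01 and their LNCaP changes 0.84 and 0.72, so the last probe showed no fall in 22Rv1. H2AC18 differed by -1.57 (SE 0.23, adjusted p = 8.12e-05), with changes of -1.18 and 0.39, the second not called. H2AC7 was detected only in LNCaP with Dox, at least 1.95-fold above the limit, with a difference of -1.14 (SE 0.17, adjusted p = 6.76e-05). Histone genes are near-identical in sequence, so a probe may read several of them. The 250 bases before H2AC6 and H2BC5 are shown because both hold several CCAAT boxes, an element common before histone genes, in capitals on either strand.
H2AC6 (chr6:26123922-26124171, plus strand): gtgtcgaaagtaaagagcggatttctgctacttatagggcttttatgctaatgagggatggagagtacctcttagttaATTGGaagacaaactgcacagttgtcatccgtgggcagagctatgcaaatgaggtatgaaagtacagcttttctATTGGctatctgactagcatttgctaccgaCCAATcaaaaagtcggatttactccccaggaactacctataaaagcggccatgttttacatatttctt
H2BC5 (chr6:26157871-26158120, plus strand): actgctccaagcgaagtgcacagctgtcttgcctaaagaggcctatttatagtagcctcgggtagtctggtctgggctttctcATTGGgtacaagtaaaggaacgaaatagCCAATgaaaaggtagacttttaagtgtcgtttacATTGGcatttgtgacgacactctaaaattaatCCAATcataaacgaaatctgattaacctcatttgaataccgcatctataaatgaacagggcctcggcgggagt
CCAAT was found 3 and 4 times in them, in 70.8% of the 24 called histone genes (17 of 24), in 40.0% of the called hypoxia genes (16 of 40) and in 9021 of all 27305 promoters.

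Many replication genes fell in each line. Of 44 measured genes of the G1/S transition, 28 fell in 22Rv1 (against 15.1% of all genes) and 22 fell in LNCaP (against 16.5%). For the difference 1 was higher and 4 were lower (11.4% called, against 18.0%). POLE, the catalytic subunit of a replicative polymerase, changed by -1.28 and -0.14 (difference -1.14, SE 0.21, adjusted p = 7.70e-04), and MCM5, of the replicative helicase, by -1.06 and -0.34 (difference -0.72, SE 0.22, adjusted p = 0.0294). The MCM5 difference was called in 18 of 25 alternatives and lost with median scaling and without any 1 of 6 arrays: each 22Rv1 array without Dox, replicate 1 of 22Rv1 with Dox, replicate 2 of LNCaP without Dox and replicate 1 of LNCaP with Dox. MCM10, which activates that helicase, was the higher one, at 0.94 (SE 0.27, adjusted p = 0.0218), called in 20 of 25 alternatives, while its second probe differed by 0.09 (adjusted p = 0.888). Under the alternatives 0 to 3 genes of the list were higher and 1 to 10 lower. Of 52 genes of G2 and mitosis, 8 were higher and 0 lower (15.4% called, against 18.0% of all genes). The alternatives gave 4 to 16 higher and 0 to 2 lower. In LNCaP 25 of the 52 fell and 5 rose (against 16.5% and 10.7% of all genes). In 22Rv1 7 fell and 4 rose (against 15.1% and 8.81% of all genes). PLK1, a mitotic kinase, read 6.46, 6.48 and 6.70 without Dox and 6.53, 6.36 and 6.84 with Dox in 22Rv1. For LNCaP, PLK1 read 7.28, 7.07 and 7.08 without Dox and 6.35, 6.00 and 6.02 with Dox. The 22Rv1 groups overlapped and the LNCaP groups did not, with changes of 0.03 (SE 0.14, adjusted p = 0.908) and -1.02 (SE 0.14, adjusted p = 5.15e-05) and a difference of 1.05 (SE 0.20, adjusted p = 8.27e-04). CCNB1, which encodes cyclin B1, differed by 0.83, the kinetochore gene CENPF by 1.25 and the spindle gene NUSAP1 by 0.89, all called, though the second NUSAP1 probe differed by 0.25 (adjusted p = 0.658).

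Among adhesion receptors, ITGA5 encodes the alpha subunit of the fibronectin receptor. On 22Rv1 arrays ITGA5 read 5.48, 5.39 and 5.55 without Dox and 8.73, 8.22 and 9.08 with Dox. On LNCaP arrays ITGA5 read 6.18, 6.31 and 6.19 without Dox and 5.74, 5.75 and 5.50 with Dox. It rose in 22Rv1 and fell in LNCaP with no overlap in either, and the changes were 3.21 (SE 0.18, adjusted p = 4.28e-11) and -0.57 (SE 0.18, adjusted p = 0.0262). The difference of 3.77 (SE 0.26, adjusted p = 2.86e-09) was the most positive among genes detected in both lines. Of 16 measured integrin genes only ITGA5 and ITGA6 were called for the difference, 12.5% against 18.0% of all genes. ITGA6, a laminin receptor subunit, was detected only in LNCaP and differed by 1.05 (SE 0.25, adjusted p = 0.00582).

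ERBB2 is a receptor tyrosine kinase that pairs with EGFR and ERBB3. On 22Rv1 arrays ERBB2 read 8.60, 8.58 and 8.65 without Dox and 11.40, 10.98 and 11.66 with Dox. On LNCaP arrays ERBB2 read 9.23, 9.36 and 9.32 without Dox and 8.91, 8.90 and 8.91 with Dox. All treated 22Rv1 arrays lay above their controls and all treated LNCaP arrays below theirs. The changes were 2.74 (SE 0.14, adjusted p = 6.04e-12) and -0.39 (SE 0.14, adjusted p = 0.0410), a difference of 3.14 (SE 0.20, adjusted p = 5.39e-10). EGFR was called in LNCaP only, where its levels were 6.93, 7.30 and 6.79 without Dox and 5.84, 5.72 and 5.95 with Dox. The LNCaP groups did not overlap, with a fitted change of -1.17 (SE 0.18, adjusted p = 1.73e-04). The 22Rv1 change of EGFR was 0.42 (SE 0.18, adjusted p = 0.110) and the difference 1.59 (SE 0.26, adjusted p = 2.25e-04), while a second probe differed by 0.31 (adjusted p = 0.465). ERBB3 had no call, with an interval of -0.18 to 0.94 (adjusted p = 0.378 in limma). LRIG1, which limits ERBB signalling, differed by 1.78 (SE 0.29, adjusted p = 2.37e-04), and SPRY1, an inhibitor of receptor signalling, by 0.98 (SE 0.20, adjusted p = 0.00200). The second SPRY1 probe differed by 0.66 (adjusted p = 0.0599). Of 19 measured genes of ERBB signalling 5 were higher and 2 lower (36.8% called, against 18.0% of all genes).

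**Figure D3:**
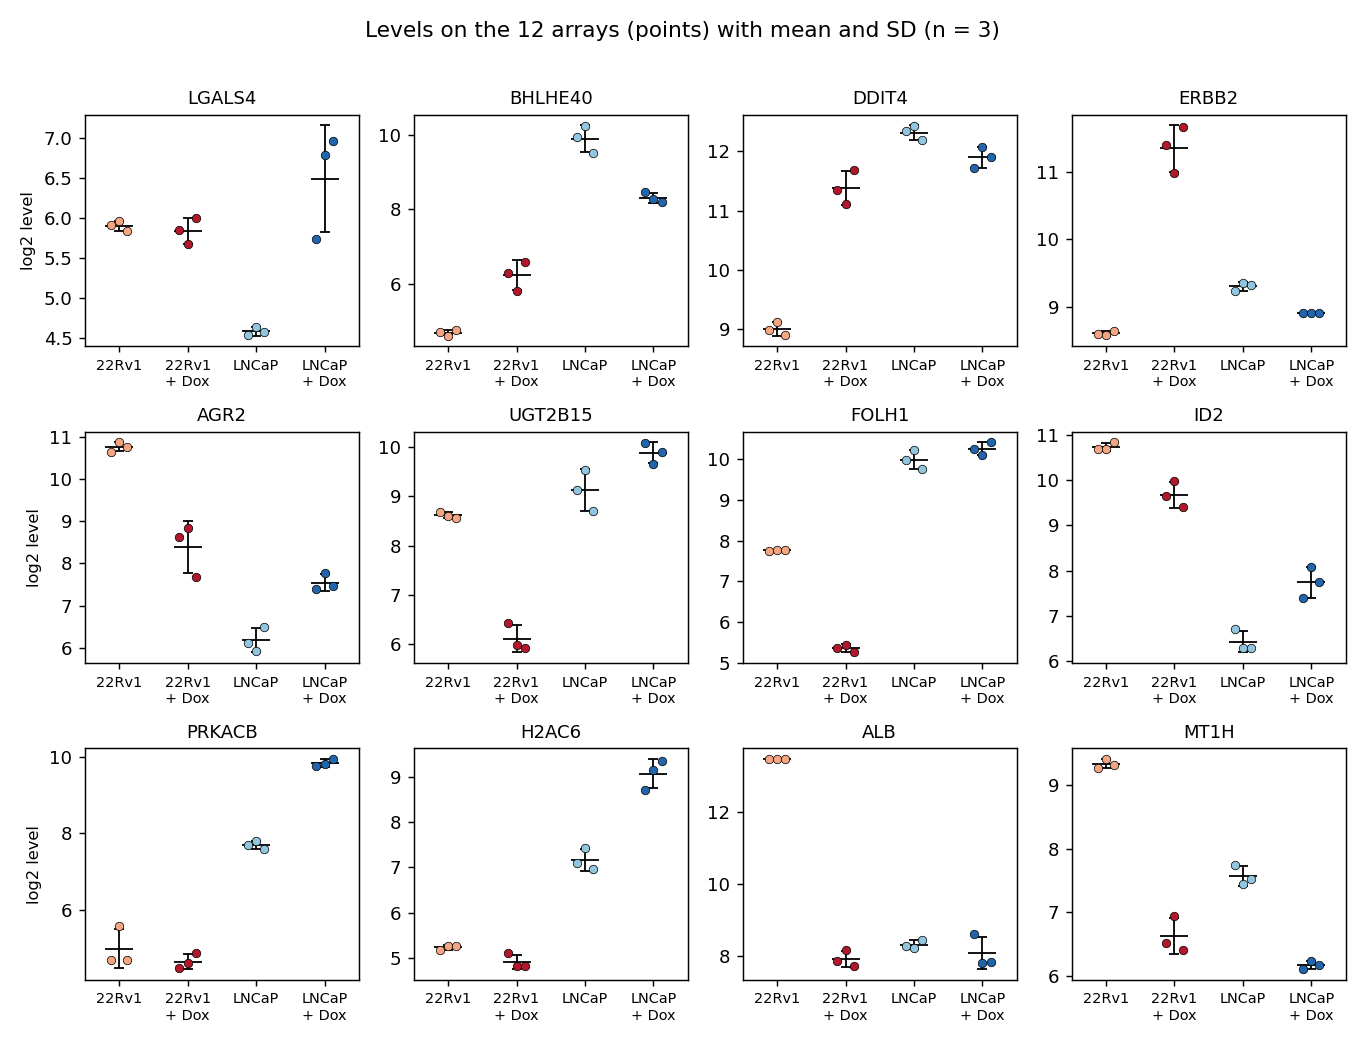
Normalized log2 level (vertical axis) on each of the 12 arrays, by group, for 12 genes, with a point for each array and bars for the mean and SD (n = 3). BHLHE40, AGR2, UGT2B15 and ID2 move in opposite directions in the lines, FOLH1 and ALB fall in 22Rv1, PRKACB rises in LNCaP and MT1H falls in both.

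In the list of cell adhesion and epithelial-mesenchymal genes, CDH2, or N-cadherin, was detected on all 22Rv1 arrays and on no LNCaP array. On 22Rv1 arrays CDH2 read 10.05, 10.08 and 9.97 without Dox and 5.46, 5.81 and 6.25 with Dox, with no overlap. The change was -4.19 (SE 0.18, adjusted p = 3.59e-13) and the difference -4.13 (SE 0.25, adjusted p = 4.36e-10). SNAI2, a repressor of epithelial genes, was not well above background in 22Rv1 with Dox and fell at least 1.64-fold there. In LNCaP it rose by 0.51 (adjusted p = 0.00826), and the difference was -1.69 (SE 0.19, adjusted p = 2.68e-06). TWIST1, a factor of the same kind, differed by -1.06 (SE 0.26, adjusted p = 0.00646). EPCAM, an epithelial adhesion molecule, rose in both lines, by 2.31 in 22Rv1 and 0.48 in LNCaP. Its difference was 1.82 (SE 0.21, adjusted p = 4.89e-06), and its other probes differed by 2.12 and 2.74. CDH1, or E-cadherin, had no call: its changes were -0.31 and -0.33, and the interval of the difference -0.53 to 0.58 (adjusted p = 0.966 in limma). Of 25 measured genes in this list 2 were higher and 5 lower (28% called, against 18.0% of all genes). In 22Rv1 2 rose and 5 fell, and in LNCaP 3 rose and 4 fell.

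Androgen targets are genes that androgen induces, and 5 of 24 were higher and 8 lower (54.2% called, against 18.0%). TMEFF2, a membrane protein of prostate and brain, was the lowest of them. On 22Rv1 arrays TMEFF2 read 10.33, 10.14 and 10.22 without Dox and 6.33, 6.72 and 6.81 with Dox. On LNCaP arrays TMEFF2 read 10.89, 10.98 and 10.64 without Dox and 10.61, 11.26 and 11.14 with Dox. The fall was in 22Rv1, at -3.61 (SE 0.25, adjusted p = 6.49e-10), with 0.17 (SE 0.25, adjusted p = 0.682) in LNCaP and a difference of -3.78 (SE 0.35, adjusted p = 1.70e-07). FOLH1, the prostate-specific membrane antigen, is a luminal marker here and not in the list of androgen targets. FOLH1 changed by -2.41 and 0.27 (difference -2.68, SE 0.25, adjusted p = 2.27e-07). SLC45A3, or prostein, changed by -2.07 and 0.12 (difference -2.19, SE 0.19, adjusted p = 1.10e-07). TMPRSS2, a membrane protease, changed by -1.40 and -0.09 (difference -1.31, SE 0.30, adjusted p = 0.00399). PLPP1, a lipid phosphatase, differed by -2.41 (SE 0.24, adjusted p = 5.34e-07), and by -1.98 and -0.68 (adjusted p = 0.0811 for the last) at its other probes. KLK2, a secreted protease next to KLK3 in the genome, rose in 22Rv1 by 0.91, with an uncalled -0.42 in LNCaP, a difference of 1.33 (SE 0.23, adjusted p = 4.22e-04). KLK3 had no call for the difference of -0.40 (SE 0.19, adjusted p = 0.146) and a called LNCaP change of 0.39, though its LNCaP groups overlapped. Of 8 luminal markers 2 were higher and 3 lower (62.5% called, against 18.0% of all genes). STEAP1, a prostate membrane metalloreductase, had opposite calls of -0.98 and 1.61 with a difference of -2.60 (SE 0.31, adjusted p = 5.32e-06). Its 3 other probes differed by -0.56, -2.93 and -1.65. Their 22Rv1 changes were 0.01, -0.77 and -0.49 and their LNCaP changes 0.57, 2.16 and 1.16, so the first showed no fall in 22Rv1.

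Enzymes that make or clear steroids were mostly lower, 9 of 17 against 1 higher (58.8% called, against 18.0% of all genes), with 4 opposite calls. AKR1C2 inactivates dihydrotestosterone. On 22Rv1 arrays AKR1C2 read 10.87, 10.90 and 10.85 without Dox and 5.91, 6.01 and 5.67 with Dox. It was detected on no LNCaP array. The 22Rv1 fall was -5.01 (SE 0.15, adjusted p = 1.33e-15), and the difference -4.87 (SE 0.22, adjusted p = 2.72e-12). AKR1C3, which makes testosterone from androstenedione, differed by -2.01 (SE 0.26, adjusted p = 1.93e-05). UGT2B15, UGT2B17 and UGT2B10 belong to the family that joins glucuronic acid to androgens and other small molecules. On 22Rv1 arrays UGT2B15 read 8.68, 8.61 and 8.56 without Dox and 6.43, 5.98 and 5.92 with Dox. On LNCaP arrays UGT2B15 read 9.13, 9.54 and 8.70 without Dox and 10.09, 9.66 and 9.91 with Dox. The groups lay apart in both lines in opposite directions, with changes of -2.51 (SE 0.20, adjusted p = 8.44e-09) and 0.76 (SE 0.20, adjusted p = 0.00839), and the difference was -3.27 (SE 0.29, adjusted p = 8.80e-08). UGT2B10 followed at -2.48 and 0.65 (difference -3.13, SE 0.26, adjusted p = 5.31e-08). UGT2B17 changed by -2.07 and -0.13 (difference -1.94, SE 0.24, adjusted p = 1.10e-05), with other probes at -2.82 and -0.25. AKR1C and UGT2B genes are close in sequence, so their probes may read several members.

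Several markers of gut and liver epithelium fell with Dox in 22Rv1. Of 15 measured gut genes 8 were lower and 2 higher (66.7% called, against 18.0% of all genes). In 22Rv1 9 of them fell and 1 rose (against 15.1% and 8.81% of all genes). AGR2 folds mucins in the endoplasmic reticulum. On 22Rv1 arrays AGR2 read 10.64, 10.86 and 10.76 without Dox and 8.61, 8.84 and 7.68 with Dox. On LNCaP arrays AGR2 read 6.11, 5.93 and 6.49 without Dox and 7.40, 7.78 and 7.46 with Dox. Groups did not overlap in either line, with changes of -2.38 (SE 0.38, adjusted p = 1.10e-04) and 1.37 (SE 0.38, adjusted p = 0.0110) and a difference of -3.75 (SE 0.54, adjusted p = 5.41e-05). A second AGR2 probe differed by -2.33 (adjusted p = 4.20e-04), with a LNCaP change of -0.10, so the AGR2 rise in LNCaP rests on 1 probe. CDH17, an intestinal cadherin, MUC13, a membrane mucin, and VIL1, a brush-border protein, were not detected on any LNCaP array and differed by -2.29, -2.09 and -1.59. ALB, or albumin, had the most negative difference of all genes detected in both lines. On 22Rv1 arrays ALB read 13.48, 13.49 and 13.48 without Dox and 7.86, 8.18 and 7.73 with Dox. On LNCaP arrays ALB read 8.30, 8.23 and 8.45 without Dox and 8.61, 7.82 and 7.84 with Dox. The 22Rv1 change was -5.56 (SE 0.17, adjusted p = 1.33e-15), the LNCaP change -0.24 (SE 0.17, adjusted p = 0.337) and the difference -5.32 (SE 0.24, adjusted p = 2.72e-12), with -5.90 at a second probe. FGL1, a liver-secreted fibrinogen-like protein, fell at least 8.31-fold in 22Rv1 and by 0.70 on the log2 scale in LNCaP, a difference of -2.66 (SE 0.32, adjusted p = 5.60e-06). Its 4 other probes differed by -1.86 to 0.19. PON1, a serum esterase, was detected only in 22Rv1 and differed by -3.14 (SE 0.24, adjusted p = 2.26e-08). TTR, a thyroid hormone carrier, differed by -1.41 (SE 0.22, adjusted p = 1.18e-04). Of 14 measured liver-secreted genes 5 were lower and 0 higher (35.7% called, against 18.0% of all genes). In bulk RNA, fewer cells of a kind and less RNA per cell cannot be told apart.

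BMP signalling, which acts through SMAD proteins to switch on the ID genes, had members on each side. Of 21 measured genes 5 were higher and 5 lower (47.6% called, against 18.0% of all genes). Among ligands, BMP2 fell in 22Rv1 and was undetected in LNCaP, with a change of -2.39 (SE 0.15, adjusted p = 2.02e-10) and a difference of -2.45 (SE 0.21, adjusted p = 7.32e-08). CHRD, a secreted inhibitor of BMPs, rose in 22Rv1 and was likewise undetected in LNCaP. On 22Rv1 arrays CHRD read 4.82, 4.81 and 4.77 without Dox and 7.81, 7.81 and 7.78 with Dox. The change was 3.00 (SE 0.12, adjusted p = 7.44e-14) and the difference 3.04 (SE 0.17, adjusted p = 7.45e-11). BAMBI, a decoy receptor, had opposite calls of 0.82 and -0.43 and a difference of 1.25 (SE 0.22, adjusted p = 5.50e-04). The targets ID1 and ID2 encode inhibitors of basic helix-loop-helix factors. On 22Rv1 arrays ID2 read 10.69, 10.68 and 10.83 without Dox and 9.65, 9.97 and 9.40 with Dox. On LNCaP arrays ID2 read 6.71, 6.29 and 6.30 without Dox and 7.41, 8.08 and 7.75 with Dox. It fell in 22Rv1 and rose in LNCaP without overlap, with changes of -1.06 (SE 0.24, adjusted p = 0.00299) and 1.31 (SE 0.24, adjusted p = 6.73e-04), a difference of -2.37 (SE 0.34, adjusted p = 6.01e-05), and its second probe differed by -2.44. ID1 was called in LNCaP only, at 1.84 (SE 0.41, adjusted p = 0.00242), against -0.94 (SE 0.41, adjusted p = 0.106) in 22Rv1. Its difference was -2.78 (SE 0.57, adjusted p = 0.00181) at the brighter probe and -1.57 (adjusted p = 0.0595) at the other.

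Of 21 measured protein kinase A genes 3 were higher and 3 lower (28.6% called, against 18.0% of all genes). PRKACB, a catalytic subunit, was called in LNCaP only. In 22Rv1 it was detected on 2 of 3 arrays without Dox and 1 of 3 with Dox, so its levels there lay near background. On 22Rv1 arrays PRKACB read 4.69, 5.57 and 4.69 without Dox and 4.47, 4.61 and 4.87 with Dox, with overlap. On LNCaP arrays PRKACB read 7.69, 7.81 and 7.60 without Dox and 9.76, 9.82 and 9.95 with Dox, without overlap. The changes were -0.34 (SE 0.18, adjusted p = 0.199) and 2.14 (SE 0.18, adjusted p = 3.31e-07), the difference -2.48 (SE 0.26, adjusted p = 7.35e-07), and 3 other probes differed by -0.88, -2.13 and -1.50. PKIB, an inhibitor of the kinase, differed by -1.21 (SE 0.28, adjusted p = 0.00453). AKAP12, a scaffold that holds the kinase, had opposite calls of 0.80 and -1.46 and a difference of 2.27 (SE 0.22, adjusted p = 3.15e-07). Its other probes differed by 1.21 and 0.26. CREB1, a factor the kinase activates, differed by 1.47 (SE 0.26, adjusted p = 4.22e-04), and its 4 other probes ranged from -0.13 to 2.11.

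Of 25 measured fatty acid genes 7 were higher and 0 lower (28% called, against 18.0% of all genes). The alternatives gave 4 to 13 higher and 0 to 4 lower. In LNCaP 15 fell and 0 rose (against 16.5% and 10.7% of all genes). ACSL1, which activates long-chain fatty acids, had opposite calls of 1.64 and -0.48, a difference of 2.12 (SE 0.18, adjusted p = 8.69e-08). ELOVL7, a fatty acid elongase, differed by 1.34 (SE 0.24, adjusted p = 4.64e-04). ACLY, which makes cytosolic acetyl-CoA, differed by 1.07 (SE 0.29, adjusted p = 0.0123), with 0.47 (adjusted p = 0.412) at its second probe. Of 20 measured cholesterol synthesis genes 1 was higher and 6 were lower (35% called, against 18.0% of all genes). There were 11 falls in 22Rv1 (against 15.1% of all genes) and 6 in LNCaP (against 16.5%). SC5D and IDI1, enzymes of that route, rose in LNCaP by 1.27 and 0.86, with uncalled changes of -0.23 and -0.27 in 22Rv1. LSS, or lanosterol synthase, was called in 22Rv1 alone, at -1.47 (difference -1.14, SE 0.22, adjusted p = 9.69e-04), and its other probes differed by -0.35 and -0.06. The higher one, HSD17B7, belongs to the 171 genes described at the end.

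**Figure D4:**
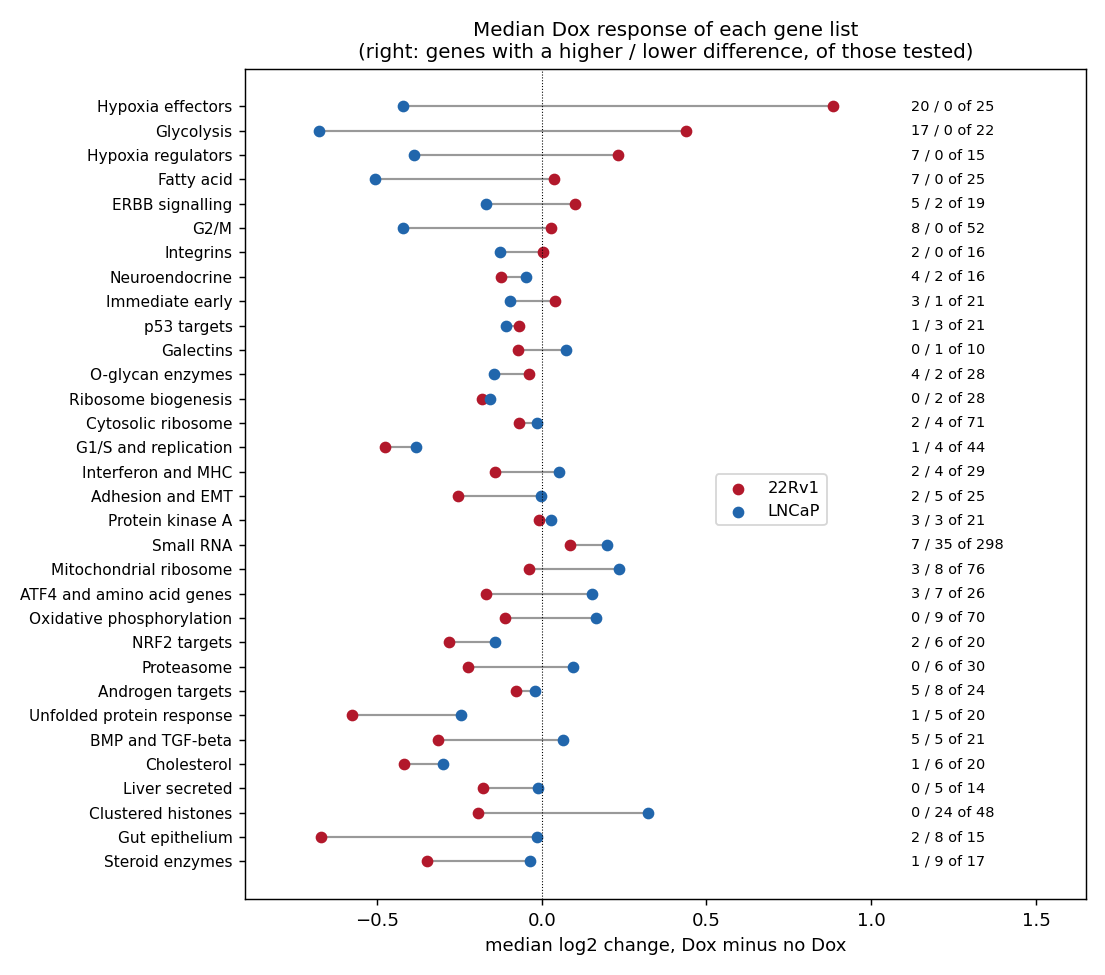
For each gene list, the median change with Dox in 22Rv1 (red) and in LNCaP (blue) (log2, horizontal axis), with the numbers of higher and lower differences and of genes measured at the right. The hypoxia lists and the histone list have medians on opposite sides of 0 in the lines. So do several other lists, such as oxidative phosphorylation and the proteasome. G1/S genes have both medians below 0, as do cholesterol and unfolded protein response genes.

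SYT4, a vesicle protein, had opposite calls of -2.53 and 0.89 and a difference of -3.42 (SE 0.28, adjusted p = 5.21e-08). CBLN2, a synapse organiser, fell in both lines, with changes of -4.34 and -1.03 and a difference of -3.31 (SE 0.30, adjusted p = 1.11e-07). MAPT, the microtubule protein tau, had opposite calls of 2.29 and -0.79 and a difference of 3.08 (SE 0.30, adjusted p = 3.15e-07). A second MAPT probe differed by 0.50 (adjusted p = 0.139). CNTNAP2, a neurexin-family protein, differed by 2.92 (SE 0.34, adjusted p = 3.89e-06). PRKCB, a protein kinase C isoform, rose in 22Rv1 by 3.15, with 0.18 in LNCaP (difference 2.97, SE 0.56, adjusted p = 8.37e-04). POU3F2, a neural transcription factor, was detected in 22Rv1 only and differed by 2.70 (SE 0.23, adjusted p = 8.48e-08), and its second probe by 2.58. CHGB, or chromogranin B, went the other way in the same cells at -1.76 (SE 0.25, adjusted p = 5.41e-05). Of 16 measured neuroendocrine markers 4 were higher and 2 lower (37.5% called, against 18.0% of all genes).

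SYTL2, a partner of secretory vesicles, fell by 3.53 in 22Rv1 and by 0.41 in LNCaP at its brightest probe (difference -3.12, SE 0.18, adjusted p = 2.61e-10). A second SYTL2 probe differed by 0.41 (adjusted p = 0.193). IGFBP3, which binds insulin-like growth factors, changed by -2.70 and 0.22 (difference -2.92, SE 0.33, adjusted p = 2.62e-06), and by -3.08 at its second probe. DDIT4L, a relative of DDIT4, fell in 22Rv1 and rose in LNCaP, with changes of -2.14 and 1.24 and a difference of -3.38 (SE 0.32, adjusted p = 2.84e-07). COLCA1 fell at least 6.98-fold in 22Rv1, with a log2 change of -0.11 in LNCaP. CRIP1, a LIM-domain protein, had log2 changes of -2.85 and 0.13. BCHE, butyrylcholinesterase, and ADH1A, an alcohol dehydrogenase, fell at least 2.18-fold and 1.94-fold in 22Rv1 and rose in LNCaP by 1.04 and 1.00 on the log2 scale. CFAP69, a protein of cilia, had opposite calls of -1.31 and 0.98. In the other orientation DPYSL4, a protein of growing axons, had calls of 1.39 and -1.05, and the pseudogene SLC6A10P of 1.02 and -1.40. SLC6A8, a creatine transporter gene in the hypoxia list named after its values were seen, is close in sequence to that pseudogene and had calls of 0.60 and -1.27.

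The difference was called for 200 of 617 genes detected in 22Rv1 alone (32.4%) and 64 of 229 detected in LNCaP alone (27.9%). It was called for 2011 of 9929 genes detected in both lines (20.3%) and 190 of the remaining 2905 (6.54%). Over all genes the share was 18.0%. A class needs detection on all 3 arrays of at least 1 group, so a gene may enter through the group where it is high. For genes detected in 1 line the difference restates the change in 1 line. HLA-DQB1, of MHC class II, fell at least 7.62-fold in 22Rv1, and CFC1, a co-receptor for Nodal, at least 5.78-fold, though a second CFC1 probe differed by -0.53 (adjusted p = 0.0290). CLDN11, a tight junction protein, differed by -2.74. INMT, a methyltransferase of tryptamines, rose at least 2.74-fold, from no detection to detection on all 3 arrays. DPEP3, a dipeptidase, and SERHL2 differed by 1.67 and 1.81, and the SERHL2 call was lost without a detection filter.

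Among genes called the same way in both lines, metallothioneins, which bind zinc and copper, fell in 22Rv1 for 6 of 8 (against 15.1% of all genes) and in LNCaP for 4 of 8 (against 16.5%). For the difference 1 was higher and 1 lower (25% called, against 18.0% of all genes). On 22Rv1 arrays MT1F read 8.92, 8.94 and 9.02 without Dox and 6.70, 7.35 and 6.62 with Dox. On LNCaP arrays MT1F read 9.63, 9.45 and 9.63 without Dox and 8.23, 8.54 and 8.32 with Dox. It fell without overlap in both, by 2.07 and 1.21, and the interval of the difference was -1.62 to -0.11 (adjusted p = 0.109 in limma). MT1H fell by 2.71 and 1.40 and did differ in size, by -1.32 (SE 0.37, adjusted p = 0.0182), with -0.32 (adjusted p = 0.426) at its second probe. The MT1H call for the difference was lost without a detection filter. MT3 went the other way: it was not well above background in 22Rv1 without Dox, rose at least 4.14-fold there, and differed by 2.47 (SE 0.31, adjusted p = 9.95e-06). NFAT5, the factor of osmotic stress, fell at least 3.38-fold in 22Rv1 and by 1.21 in LNCaP, and differed by -0.72 (SE 0.22, adjusted p = 0.0297). That call was lost in 7 of 25 alternatives: without each 22Rv1 array without Dox, replicate 2 of 22Rv1 with Dox, replicate 1 of LNCaP without Dox, and replicates 1 and 3 of LNCaP with Dox. SLX4IP, a partner of a DNA repair nuclease, and NFIC, a transcription factor, fell in both, with intervals of -0.99 to -0.08 and -0.66 to 0.53. Neither difference was called (adjusted p = 0.0980 and 0.908 in limma). The 3 other NFIC probes changed by -0.24 to 0.13 in either line. Among genes that rose in both, the TVP23C difference was -1.20 (interval -2.08 to -0.32) and not called, though 9 of 25 alternatives called it. Also uncalled were MYNN at 0.15 (-0.47 to 0.77), the small RNA RNY5 at 0.19 (-0.63 to 1.02) and TWF1, which caps actin, at -0.51 (-1.23 to 0.20). C1GALT1, which builds the core O-glycan that galectins can bind, rose in both by 0.60 and 1.13, with an interval of -1.12 to 0.07 (adjusted p = 0.229 in limma). MYC changed by -0.10 and -0.27 with no call and an interval of -0.36 to 0.69. An interval that spans 0 does not show that the lines responded alike.

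A last set of genes moved together across arrays of one group as well as between groups. It holds 171 genes whose residuals correlated above 0.9 with those of TMEM106A, MIGA1 and SNAPC1, and it was picked after values were seen, so it has no test. Of these, 167 were called higher and 0 lower, and they include 123 of the 195 genes that were at least 4-fold higher. No member of the hypoxia lists was among them, but genes that ran against the set could not enter it. Hypoxia genes named above correlated with it at -0.76 for PGK1 and -0.74 for COXFA4L2, and at 0.13 for BHLHE41 and 0.12 for PDK3. The mean level of the 171 genes was 8.75, 8.68 and 8.82 in 22Rv1 without Dox and 10.63, 10.35 and 9.92 with Dox. In LNCaP it was 9.51, 9.39 and 10.69 without Dox and 9.31, 8.93 and 9.42 with Dox. Replicate 3 of LNCaP without Dox thus lay at the level of treated 22Rv1 arrays, above the other LNCaP arrays. The median change was 1.59 in 22Rv1 and -0.65 in LNCaP, a difference of 2.28. Without that replicate the median LNCaP change was -0.26, the difference 1.86, the LNCaP falls called went from 48 to 1, and 165 genes were still higher. Zinc finger genes with a ZNF symbol made up 12.9% of the set (22 genes) and 2.96% of all genes.

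Among them, MIGA1, a mitochondrial fusion factor, differed by 3.03 (SE 0.46, adjusted p = 9.85e-05), while a second MIGA1 probe differed by 0.50 (adjusted p = 0.167). SNAPC1, of the complex that transcribes small nuclear RNAs, differed by 2.98 (SE 0.49, adjusted p = 2.14e-04), while its second probe differed by -0.05 (adjusted p = 0.933). MRPL57, a mitochondrial ribosomal protein, differed by 2.09 (SE 0.38, adjusted p = 5.53e-04), and by 0.49 (adjusted p = 0.202) at its second probe. TMEM106A, a membrane protein of immune cells, read 8.33, 8.31 and 8.81 without Dox and 11.18, 10.69 and 10.14 with Dox in 22Rv1. For LNCaP, TMEM106A read 9.47, 9.32 and 11.16 without Dox and 9.25, 8.91 and 9.61 with Dox. Its LNCaP groups overlapped, its 22Rv1 groups did not, and it differed by 2.92 (SE 0.52, adjusted p = 5.29e-04). The ion transporter gene SLC5A8, KCTD7, the sterol enzyme gene HSD17B7 and GALNT3, which starts O-glycans, differed by 2.89, 2.82, 2.49 and 2.80. CMKLR2, a chemerin receptor, and CD96, a receptor of lymphocytes, had some of the most positive differences and are not in the set, at 3.22 (SE 0.64, adjusted p = 0.00123) and 2.90 (SE 0.54, adjusted p = 7.48e-04). On LNCaP arrays CMKLR2 read 9.32, 9.34 and 11.20 without Dox and 9.53, 8.95 and 9.30 with Dox, and replicate 3 without Dox was again the highest. The sources used here give no RNA quality value per array, and its part in this set was not tested.

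**Figure D5:**
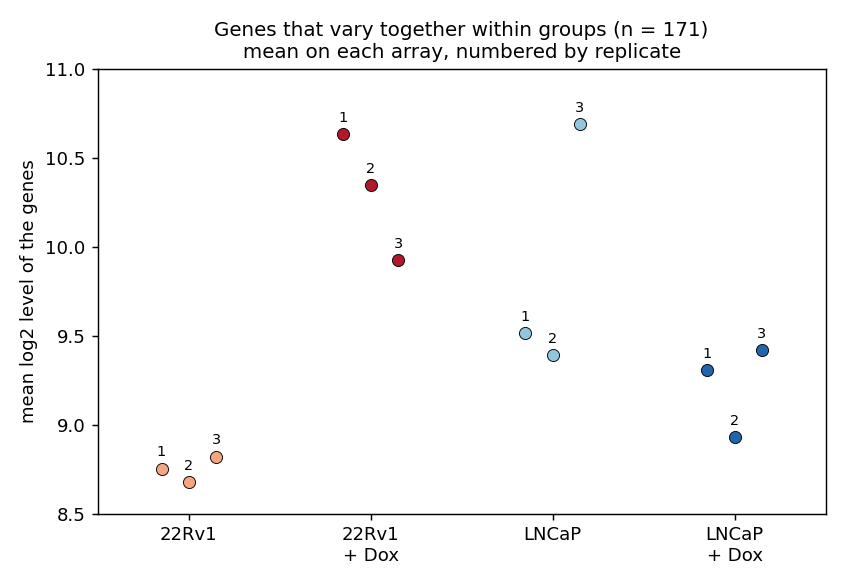
Mean normalized log2 level (vertical axis) on each of the 12 arrays for the 171 genes that move together, by group and replicate. The treated 22Rv1 arrays (9.92 to 10.63) and replicate 3 of LNCaP without Dox (10.69) lie above all other arrays (8.68 to 9.51).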

How the data were processed

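Per the labels, total RNA came from a Zymo column kit, passed a Bioanalyser check and was made into biotinylated cRNA (Ambion MessageAmp). The authors deposited, for 47303 probes and 18 arrays, an intensity on a linear scale and a detection p-value. They also deposited a matrix of log2 values, and 99.99% of them match log2 intensities quantile-normalized here without background correction, to within 0.01. Scanner software and tools: not given in the sources used here.

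Intensities were background-corrected with normexp from the detection p-values (offset 16) and quantile-normalized (function neqc of limma, version 3.58.1; R 4.3.3; statmod 1.5.0). Quantile normalization makes changes relative to the other genes of an array, and the offset shrinks changes of dim probes. Probe symbols came from GEO's platform annotation: 30103 probes had 1 symbol, 8 several and 17192 none, and 30064 were matched by Entrez ID to RefSeq, with 0 symbols changed. Probes with 1 symbol were kept where 3 or more of 18 arrays had a detection p-value under 0.05 (18408), and the brightest probe represents a gene (13680). For genes with several probes, others are given where their call differs from that of the probe used and for some further genes.

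The limma fit took all 18 arrays with a mean for each of 6 groups (12 residual and 9.12 prior degrees of freedom), and contrasts gave each response and their difference, two-sided. The median standard error of a difference was 0.22, and the number of arrays limits this precision. Both responses use separate controls. The fit was tested on simulated data before use.

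Named genes are LGALS4, the most positive and most negative differences among genes measured in both lines and in 1 line, the strongest opposite and shared calls, up to 4 called members of each list by lowest p, and 16 fixed genes. Genes named outside this rule are said to be chosen after their values were seen. Members and lists were chosen with earlier results of these data known. Alternatives covered background, scaling, offset, detection filter, arrays in the fit, weights, variance trend, probe choice, a replicate block and leaving out each array. Replicate numbers were not used to pair arrays in the main fit. Same-numbered arrays correlated at -0.25 to 0.11 in their deviations from group means, and others at -0.17 to 0.26. These correlations do not settle whether the numbers pair arrays. The deposited tables held 0 further columns of per-sample values.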

Additional observations from a re-analysis of the deposited data

Results flagged for a closer look

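The Dox response differed between 22Rv1 and LNCaP for 2465 of 13680 genes by the limma test of the difference itself. Of these, 209 were called up in 22Rv1 and down in LNCaP, and 74 were called down in 22Rv1 and up in LNCaP.

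The galectin-4 probe also differed between the lines, with an LGALS4 difference of -1.98 (SE 0.30, adjusted p = 1.09e-04) in limma, from a change of -0.06 in 22Rv1 and of 1.92 in LNCaP. All 3 LNCaP arrays with Dox lay above all 3 without, while the 22Rv1 groups overlapped.

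A signal was also present in data that the comparisons leave out. Of 7267 probes without a gene symbol that passed the same detection filter, 637 were called for the difference (8.77%), 383 higher and 254 lower in the 22Rv1 response. They are unnamed here.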

How the results depend on the processing

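No called difference of a named gene changed direction in the 25 alternatives run for single genes, and 4130 of 4250 combinations of a named gene and an alternative kept the call as well, while 95 lost it and 25 gained it. The number of genes called for the difference was 2465 and lay between 1867 and 3345 in all alternatives but array weights, which gave 4872 (2423 shared with the 2465). Array weights gave 2325 higher and 2547 lower, 524 and 256 opposite calls (22Rv1 up and down), 789 shared rises, 1593 shared falls, and 2800 rises and 4601 falls in 22Rv1. With the main axis of spread within groups as a covariate, 113 genes were down in 22Rv1 and up in LNCaP, 394 rose in both and 963 fell in both. With that axis removed from all arrays, these were 154 opposite calls and 310 shared falls, with 1349 falls in LNCaP. Without a detection filter 134 genes were up in 22Rv1 and down in LNCaP. The removed axis and the counts without the 171 genes that move together (2298 called) were chosen after seeing the data. The causes of these shifts were not tested, and without a filter the p-values were adjusted over more genes.

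Leaving out each array in turn gave 981 to 1543 higher and 886 to 1517 lower differences, 107 to 246 and 43 to 91 opposite calls, 103 to 525 shared rises and 305 to 917 shared falls. In 22Rv1 it gave 900 to 1549 rises and 1455 to 2586 falls, and in LNCaP 1135 to 1575 rises and 1367 to 2538 falls, with an LGALS4 difference of -2.36 to -1.75. The LGALS4 difference was -0.73 without background correction and in the authors' matrix, and -1.16 with an offset of 50, called in each. Shared rises also became 122, 127 and 115 without replicates 1, 2 and 3 of 22Rv1 without Dox and 114 without replicate 1 of 22Rv1 with Dox. Shared falls became 342 and 345 without replicates 1 and 3 of 22Rv1 without Dox, 349 without replicate 1 of LNCaP without Dox, and 350 and 305 without replicates 2 and 3 of LNCaP with Dox. LNCaP falls became 1488 and 1367 without those last arrays. With the replicate number as a block 2221 genes were called, 2196 of them shared, and whether the numbers pair the arrays is not settled. The slide as a block was not run, since the files name no slides.

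NUSAP1 and ACLY lost their call with the mean of probes. Counts of lower genes ran from 3 to 9 for adhesion, 4 to 10 for cholesterol synthesis, 3 to 9 for the unfolded protein response, 3 to 13 for ATF4 genes, 5 to 12 for the proteasome, 24 to 67 for small RNAs, 4 to 20 for the mitochondrial ribosome, 3 to 21 for oxidative phosphorylation and 3 to 11 for the cytosolic ribosome. Dim probes limit the rest: where a gene was not well above background in a group, its fold is given as a bound, and its fitted log2 values depend on the background correction.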

Other observations

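Of 30 measured proteasome genes 6 were lower in the 22Rv1 response and 0 higher (20%, against 18.0% of all genes called). PSMA4, PSMC2 and PSMD10, of the core and the cap, rose in LNCaP by 0.93, 0.83 and 0.96, with changes in 22Rv1 of -0.13, -0.27 and -0.03 that were not called. The second PSMA4 probe differed by -0.86 (adjusted p = 0.0568). PSMD9, an assembly chaperone, was lower through a 22Rv1 change of -1.06 (SE 0.16, adjusted p = 7.59e-05) in limma. Of 298 measured small RNA genes 7 were higher and 35 lower (14.1%). In LNCaP 83 of them rose and 2 fell (against 10.7% and 16.5% of all genes). In 22Rv1 28 rose and 15 fell (against 8.81% and 15.1% of all genes). SNORA12 and SCARNA13, which guide RNA modification, had opposite calls of -1.02 and 1.37, and of -0.48 and 0.99. Of 76 mitochondrial ribosomal genes 3 were higher and 8 lower (14.5%), of 70 oxidative phosphorylation genes 0 and 9 (12.9%), and of 71 cytosolic ribosomal genes 2 and 4 (8.45%).

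Of 26 measured ATF4 and amino acid genes 3 were higher and 7 lower (38.5% called, against 18.0% of all genes). DDIT3, or CHOP, a factor of the integrated stress response, rose in LNCaP by 1.66, with 0.11 in 22Rv1 (difference -1.55, SE 0.32, adjusted p = 0.00192 in limma), and CEBPB, a related factor, differed by -0.93. SLC7A5, a leucine transporter, was higher, with a 22Rv1 change of 1.61 (difference 1.40, SE 0.23, adjusted p = 2.63e-04 in limma). In the unfolded protein response, where chaperones of the endoplasmic reticulum are induced, 1 of 20 was higher and 5 were lower (30%), while 11 fell in 22Rv1 (against 15.1% of all genes) and 6 in LNCaP (against 16.5%). CRELD2 and DNAJB11, both of that response, differed by -0.92 and -0.68. Of 21 measured p53 targets 1 was higher and 3 were lower (19.05%, against 18.0% of all genes), while 3 rose and 2 fell in 22Rv1 and 3 rose and 3 fell in LNCaP. TIGAR and SESN1 rose in LNCaP by 1.29 and 0.62, with 0.12 and -0.12 in 22Rv1, and the SESN1 difference was called in 18 of 25 alternatives. ZMAT3 rose in 22Rv1 by 1.36, with 0.56 and 0.03 at its other probes. B2M, the light chain of MHC class I, rose in LNCaP by 0.86, with -0.27 in 22Rv1 (difference -1.12, SE 0.31, adjusted p = 0.0148 in limma).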
